A study of Mus musculus with 6 samples.

Results

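Transcripts of 9 mouse genes of regulated secretion were examined in whole embryonic pancreas: the small GTPases Rab3a, Rab3b, Rab3c, Rab3d, Rab27a and Rab27b, and the effectors Rims2, Rph3al and Sytl4. A probe set was taken as a member where the platform annotation gave 1 of these symbols and no other gene, which yielded 29 of 45037 probe sets and 9 of 18193 genes. The family was chosen by an earlier result of the same comparison, the lower level of Rab3b in Hox6 null pancreas, and the other members were added as its relatives and effectors. The members' own differences between genotypes are therefore given as a description, with their errors and without a p-value.

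Rab3 and Rab27 proteins sit on secretory vesicles in their GTP-bound form and recruit effectors that tether, dock and prime the vesicle at the plasma membrane, before SNARE proteins fuse it. Rab3 paralogues are known from synaptic vesicles and from endocrine and exocrine granules, and Rab27 proteins from granule docking in islet, acinar, blood and pigment cells. In the pancreas these proteins serve the release of hormones by islet cells and of zymogen by acinar cells.

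Total RNA came from pancreata dissected at embryonic day 12.5 (E12.5) and was measured on Affymetrix arrays. The control group held 3 wild type samples and the other group 3 Hox6 null samples, all of strain Bl6, with 1 array per sample. Hox6 stands for the paralogous genes Hoxa6, Hoxb6 and Hoxc6, and the labels do not describe the alleles, the number of embryos per sample, their sex or their litters. The labels call the samples biological replicates. All levels are log2 values, so that a difference of 1 is a doubling. Genotypes are compared only within a probe set. Levels of different probe sets are compared only to call some dim or low, to choose 1 per gene and to filter genes.

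Pancreatic markers gave signal on the arrays, as did nearly all other cell type markers measured, so the check that follows does not identify the tissue. None of the 17 measured epithelial, 10 pancreatic progenitor, 8 endocrine and 7 acinar markers lay below 4.21, the 25th percentile of all values, on all 6 arrays; probe sets below it on every array are called dim in what follows. Across probe sets, control arrays correlated with each other at 0.994 to 0.995 (Pearson) and null arrays at 0.98 to 0.987. Pairs of a control and a null array correlated at 0.979 to 0.99. The closest such pair was thus more alike than any pair of null arrays. Null 3 stood apart from null 1 and null 2 in its epithelial markers. Their mean level was 8.24 to 8.31 in controls, 9.26 in null 1, 9.09 in null 2 and 8.30 in null 3. Array medians lay between 5.97 and 6.02.

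Rab3b was lower on every Hox6 null array than on every control array. Rab3b is a Rab3 paralogue of neuronal, endocrine and epithelial cells, and 1 probe set (1422583_at) measured it. Its log2 level was 6.65, 6.76 and 6.91 in controls 1 to 3, and 5.77, 5.67 and 5.65 in nulls 1 to 3. The groups were separated by 0.87 between the lowest control and the highest null array, and null 3 was no closer to the controls than null 1 or null 2. The means were 6.77 ± 0.13 (SD, n = 3) and 5.70 ± 0.07 (SD, n = 3), a difference of -1.07 ± 0.11 (SE), or 2.11-fold. With each array left out in turn the difference stayed between -1.14 and -1.01.

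Rab3b was the single member past an adjusted p of 0.05 in the fit over all genes (limma, Benjamini-Hochberg), where 0.066% of all genes were called lower and 0.0055% higher. That call is what brought the family to attention, and nothing is read from it here. Of the alternatives that kept this gene, 17 in all, 7 called it. Among these, the threshold of 0.1 could not lose the call. The mean over all probe sets used the same values for this gene, which has 1 probe set. The call was lost without control 1, control 2, control 3, null 1 or null 2, with the replicate number as a block, with quantile normalization repeated, over all probe sets, and with the epithelial or the endocrine marker level as a covariate. The difference itself was -1.13 with the epithelial and -1.07 with the endocrine covariate. The endocrine level was higher on every null array than on every control array, in null 3 only with the marker gene Myt1 included. A fit on 6 arrays can therefore hardly separate that covariate from genotype. In bulk tissue a lower share of cells that express a gene and less RNA per cell cannot be told apart.

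**Figure D1:**
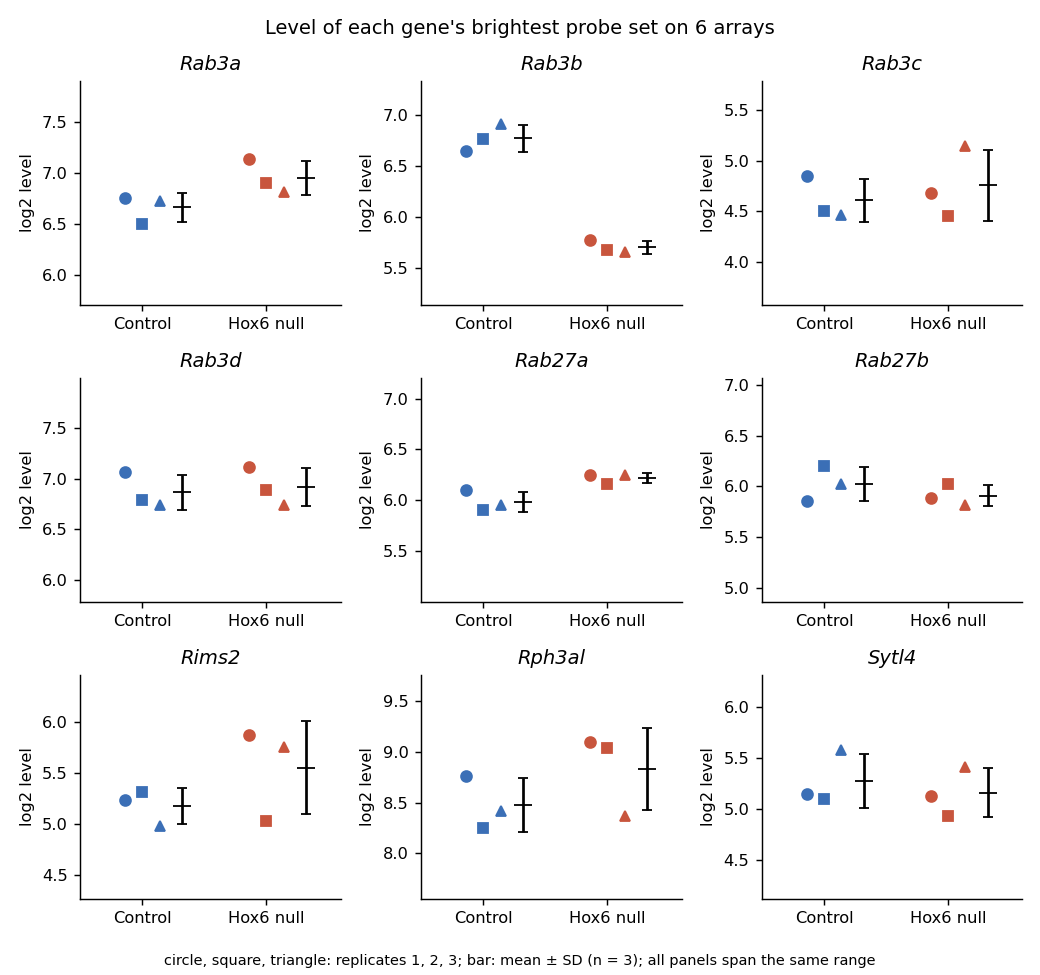
Log2 level of the probe set with the highest mean of each of the 9 genes (y axis, the same span in each panel) in control and Hox6 null samples (x axis). Circles, squares and triangles are replicates 1, 2 and 3, and bars show the mean ± SD (n = 3). Rab3b runs from 6.65 to 6.91 in controls and from 5.65 to 5.77 in nulls, and the other panels show overlapping groups or small gaps.

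The region before the start site of Rab3b is shown beside those of its paralogues, since Rab3b alone among the Rab3 genes was lower. Sequences are the 250 bases before a start in the RefSeq promoter table (GRCm38.p6), read 5′ to 3′ on the gene's strand: chr4:108878820-108879069 (+) for Rab3b, chr8:70754453-70754702 (+) for the first of the Rab3a starts, chr13:110280207-110280456 (-) for Rab3c and chr9:21918184-21918433 (-) for Rab3d. The Rab3c start used here lies 790 bases, and that of Rab3d 16 bases, inside the annotated span of the gene, so that other starts may lie further upstream. Capitals mark GGGCGG (the GC box) and TAAT (the core of homeodomain sites, the class to which Hox proteins belong) on either strand.
Rab3b: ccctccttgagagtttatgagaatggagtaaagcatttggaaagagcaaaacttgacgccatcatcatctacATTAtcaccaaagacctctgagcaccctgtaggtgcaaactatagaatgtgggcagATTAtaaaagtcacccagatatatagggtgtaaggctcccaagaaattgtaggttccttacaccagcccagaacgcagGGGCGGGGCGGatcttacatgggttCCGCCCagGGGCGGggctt
Rab3a: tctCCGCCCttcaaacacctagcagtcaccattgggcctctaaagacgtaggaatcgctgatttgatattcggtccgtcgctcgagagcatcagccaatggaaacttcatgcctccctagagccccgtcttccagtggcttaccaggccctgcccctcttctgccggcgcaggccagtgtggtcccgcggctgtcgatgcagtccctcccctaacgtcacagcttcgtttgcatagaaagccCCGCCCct
Rab3c: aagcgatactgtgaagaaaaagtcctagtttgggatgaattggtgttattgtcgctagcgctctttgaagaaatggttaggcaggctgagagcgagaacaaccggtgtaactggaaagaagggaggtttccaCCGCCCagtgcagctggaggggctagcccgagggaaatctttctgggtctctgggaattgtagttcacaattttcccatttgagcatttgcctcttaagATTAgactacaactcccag
Rab3d: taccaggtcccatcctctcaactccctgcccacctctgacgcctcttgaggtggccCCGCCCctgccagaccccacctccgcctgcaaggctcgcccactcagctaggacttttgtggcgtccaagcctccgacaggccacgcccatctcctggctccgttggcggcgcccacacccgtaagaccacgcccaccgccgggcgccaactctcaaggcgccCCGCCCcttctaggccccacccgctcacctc

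The Rab3b window held 4 GC boxes, 2 of them overlapping, which begin 44, 39, 19 and 11 bases before the start. It also held 2 TAAT cores, at 178 and 122 bases, and the second of them overlaps a TATAAA match on the same stretch. Rab3a had 2 GC boxes and Rab3d 2 in these windows, Rab3c had 1, and a TAAT core was found in Rab3c but not in Rab3a or Rab3d. Of 32851 promoter windows of this length in the RefSeq table, 32.7% held a GC box and 54.9% a TAAT core, so that either match is common. TGATNNAT, a spaced Hox and Pbx site, occurred in 0 of the 9 windows of members and in 7.68% of all windows. Windows were found for 7 of the 9 members. A match is a string of letters, not a bound site.

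The synaptic paralogue Rab3a, the major Rab3 protein of neurons and also present in islet cells, was slightly higher in null samples. Its probe set with the highest mean (1422589_at) read 6.76, 6.49 and 6.73 in controls and 7.13, 6.90 and 6.81 in nulls. The lowest null array exceeded the highest control array by 0.06, and the difference was 0.29 ± 0.13 (SE), beside an SD of 0.14 in controls and 0.17 in nulls. The other probe set (1459980_x_at) gave 6.77, 6.49 and 6.80 against 6.85, 6.88 and 6.69, with overlap and a difference of 0.12. With the endocrine marker level as a covariate the first difference became -0.03.

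Rab3d, the paralogue of zymogen granules in exocrine cells, overlapped between genotypes in all 4 of its probe sets. The probe set with the highest mean (1449259_at) read 7.06, 6.79 and 6.74 in controls and 7.11, 6.89 and 6.74 in nulls. The difference was 0.05 ± 0.14 (SE), smaller than the SD of 0.17 in controls, and with 1 array left out it ran from -0.05 (without null 1) to 0.15 (without control 1). In the other probe sets the differences were 0.10, 0.31 and 0.10. In 1418891_a_at the null 1 and null 2 levels, 6.68 and 6.92, exceeded all controls while null 3 (6.41) lay among them. The sign of the first probe set turned to -0.16 with the epithelial covariate and -0.33 with the endocrine covariate.

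Rab3c, a paralogue found mainly in neurons, had low levels throughout. Its 5 probe sets had differences from 0.10 to 0.51, and 2 of them were dim. The probe set with the highest mean (1435047_at) read 4.85, 4.51 and 4.46 in controls and 4.68, 4.45 and 5.14 in nulls, with null 3 the highest array. In 1432432_a_at null 3 stood at 5.32, which is 1.80 above the control mean, while null 1 and null 2 read 3.79 and 2.94. The positive mean of both probe sets thus leaned on null 3, and without it the first gave -0.04. Probe set 1449494_at was the 1 of the 5 without overlap, at 3.90 to 4.17 in controls and 4.18 to 4.45 in nulls.

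Rab27a, which docks granules in islet and blood cells, was higher by a small margin in its main probe set. That probe set (1429123_at) read 6.10, 5.91 and 5.95 in controls and 6.25, 6.16 and 6.25 in nulls. All nulls exceeded all controls, by 0.23 ± 0.10 (SE) on average. The remaining 3 probe sets overlapped, with differences of 0.20, 0.03 and -0.12. In 1454438_at and 1425284_a_at null 3 was the lowest of all arrays.

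Rab27b, its paralogue in platelets and secretory epithelia, gave probe sets of opposite sign. In 1417214_at the levels were 5.85, 6.20 and 6.02 in controls and 5.88, 6.02 and 5.82 in nulls, a difference of -0.12 ± 0.13 (SE), which was -0.20 without control 1 and -0.03 without control 2. In 1417215_at they were 4.74, 4.99 and 4.87 in controls and 5.13, 5.22 and 5.12 in nulls, a difference of 0.29 ± 0.11 (SE) without overlap. The other probe sets gave -0.17 and -0.14 with overlap. The probe sets of Rab27b gave no common direction.

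**Figure D2:**
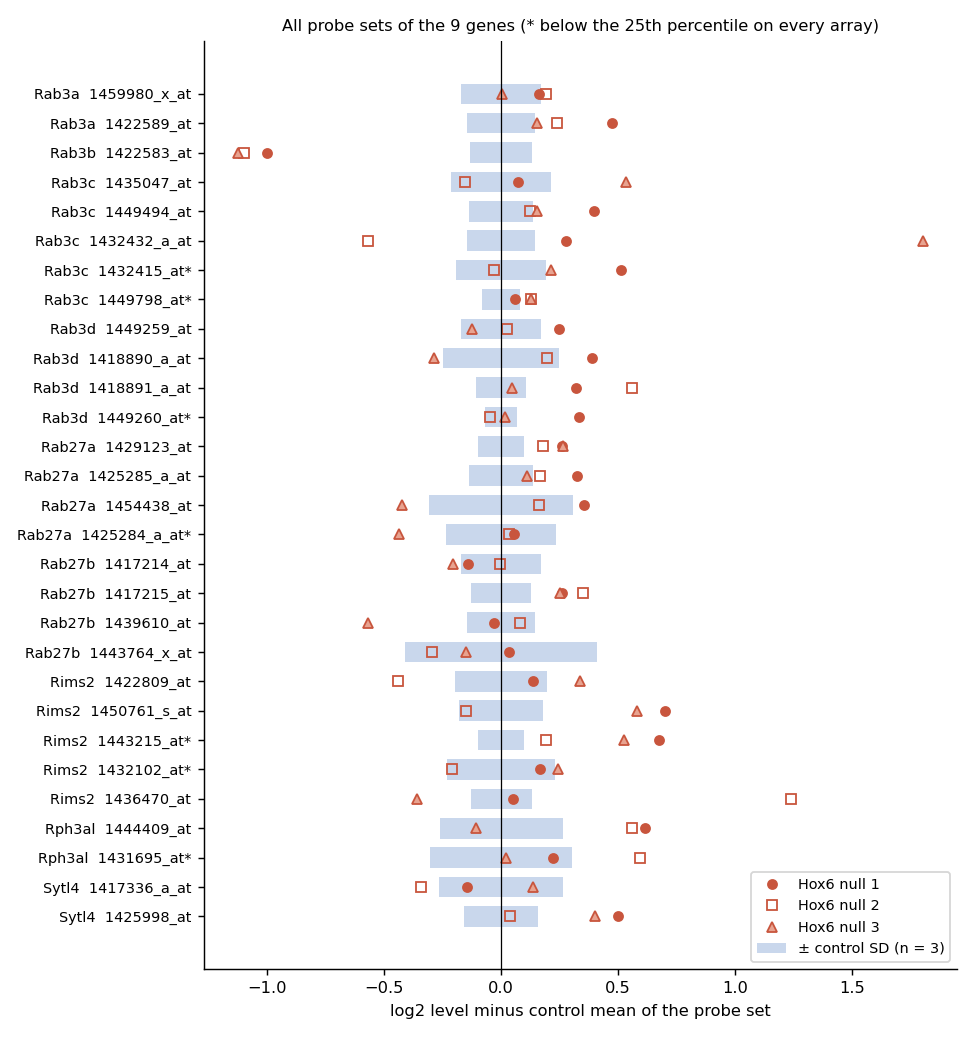
Each row is 1 of the 29 probe sets, and the x axis is the log2 level on each Hox6 null array minus the mean of the 3 controls; symbols are nulls 1, 2 and 3 and the pale bar spans ± 1 control SD. The 3 symbols of Rab3b lie together near -1, left of all others, while those of the other probe sets spread around or above 0, up to 1.24 for null 2 in Rims2 and 1.80 for null 3 in Rab3c; an asterisk marks the 7 dim probe sets.

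Among the effectors, Rph3al was split between null arrays. Rph3al (Noc2) binds Rab3 and Rab27 and is needed for secretion by endocrine and exocrine cells. Its probe set with the highest mean (1444409_at) read 8.77, 8.25 and 8.41 in controls, 9.09 and 9.04 in null 1 and null 2, and 8.37 in null 3. Null 1 and null 2 exceeded every control, whereas null 3 lay between control 2 and control 3. The difference over all arrays was 0.36 ± 0.22 (SE), and it was 0.59 without null 3 and 0.23 without null 1. It turned to -0.14 with the epithelial and to -0.47 with the endocrine marker level as a covariate. The other probe set (1431695_at) was dim and overlapped. It read 2.90, 2.97 and 2.41 in controls and 2.98, 3.36 and 2.78 in nulls, a difference of 0.28.

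Rims2, a scaffold of release sites in neurons and of insulin granule priming, showed another split. Probe set 1450761_s_at read 5.24, 5.32 and 4.98 in controls and 5.88, 5.03 and 5.76 in nulls, so that null 2 lay among the controls. The difference was 0.38 ± 0.23 (SE), and it was 0.64 without null 2 and 0.22 without null 1. All 5 probe sets had a positive mean difference, from 0.01 to 0.47, and 1443215_at, a dim one, was the 1 without overlap. In 1436470_at a single array, null 2 at 4.38, stood above the other 5, which read 2.78 to 3.25.

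Sytl4 (granuphilin), a Rab27 effector that docks insulin granules, had probe sets of opposite sign. Probe set 1417336_a_at read 5.14, 5.10 and 5.58 in controls and 5.13, 4.93 and 5.41 in nulls, a difference of -0.12 ± 0.18 (SE). It was -0.25 without null 3, -0.0049 without null 2 and 0.03 without control 3, so that its sign rested on single arrays. Probe set 1425998_at read 4.68, 4.38 and 4.61 in controls and 5.06, 4.60 and 4.96 in nulls, a difference of 0.31 ± 0.15 (SE). Both overlapped.

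Counted over the 9 genes, each by its probe set with the highest mean, 6 had a higher and 3 a lower null mean, and the median difference was 0.15 beside 0.03 over all genes. Groups did not overlap for 3 of them, Rab3a and Rab27a higher and Rab3b lower, where 23.8% of all genes were separated, 12.2% upwards and 11.7% downwards. Over the 29 probe sets, 23 had a higher null mean, 5 were separated upwards and 1 downwards. Among all probe sets 57.3% had a higher null mean and 22% were separated, 12.1% upwards and 9.89% downwards. Over all probe sets, 0.00222% passed an adjusted p of 0.05, and no member was among them. These counts describe genes picked with this comparison in view, and no test is attached to them.

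The genes whose pattern lay nearest to Rab3b were Tek, Ifitm1, Ccn4, Vegfc and Ctss. Likeness was the root mean square difference over 6 arrays after subtraction of each gene's control mean, among 9097 genes of at least median level. It was 0.13 for Tek, an endothelial receptor of angiopoietins, and 0.16 for the interferon-induced membrane protein gene Ifitm1. It was 0.17 for Ccn4, a secreted matricellular protein, 0.17 for Vegfc, a growth factor of lymphatic vessels, and 0.18 for Ctss, a lysosomal protease of macrophages. The other 8 members stood at 0.69 to 1.07 from Rab3b. All 5 genes were lower on each null array, which is what the measure selects.

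**Figure D3:**
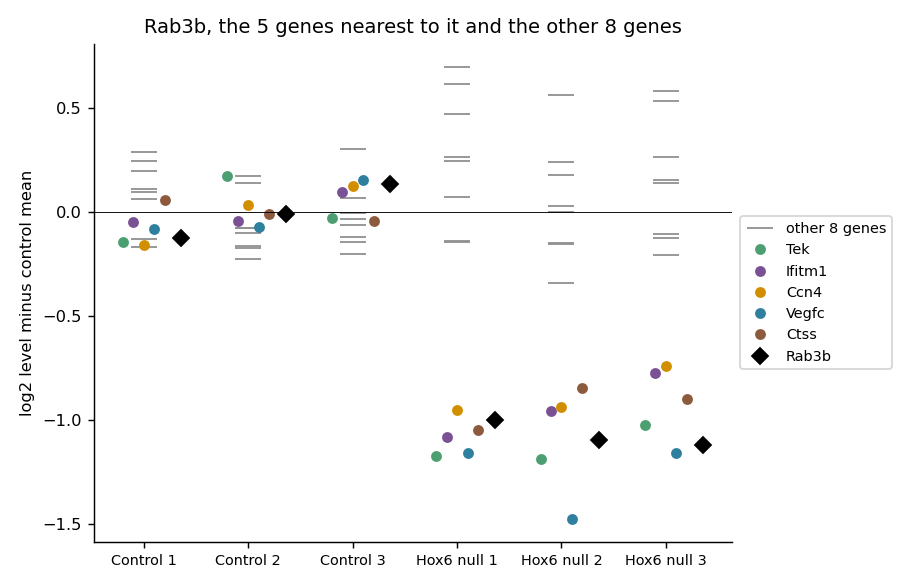
Log2 level minus the control mean (y axis) on each of the 6 arrays (x axis) for Rab3b (diamonds), the 5 genes nearest to it (coloured circles, set side by side) and the other 8 genes (grey dashes). Rab3b stands near -1 on all 3 null arrays, among the 5 genes nearest to it, and on those arrays all grey dashes lie above it.

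Cell type markers moved with genotype as well. The mean level of 14 endothelial markers was 8.50 to 8.60 in controls and 7.82 to 8.23 in nulls, and all 14 had a lower null mean. That of 13 macrophage and leukocyte markers was 8.25 to 8.32 against 7.28 to 7.76, lower for all 13. The 13 mesenchyme markers had 9.06 to 9.12 against 8.42 to 8.73, with 12 lower, and the 10 erythroid and megakaryocyte markers 7.29 to 7.38 against 6.53 to 6.89, with 10 lower. In null 3 these lists were lower than the control mean by less than in null 1 or null 2: the endothelial list stood at -0.73, -0.58 and -0.32 in nulls 1 to 3 and the macrophage list at -1.01, -0.64 and -0.53. Single genes of these lists did not all follow: Nfe2 (5.96, 5.82 and 5.89 in nulls 1 to 3), Dcn (8.41, 8.49 and 8.42) and Tek (7.09, 7.08 and 7.24), chosen after their values were seen, read much alike on the 3 null arrays, as Rab3b did. The mesenchyme genes were split in null 3. There Nkx3-2 (7.69), Barx1 (10.70) and Foxf1 (8.80) exceeded every control, and Tcf21 and Pdgfra lay among the controls. The other genes of that list lay below every control in null 3, with Lum at 4.49 against 6.38 to 7.59. The part of these cell types in the level of Rab3b was not tested.

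The epithelial, progenitor, endocrine and acinar lists were higher on null arrays 1 and 2. The endocrine markers, such as Neurog3 and Insm1, had a mean of 6.77 to 7.21 in controls and 7.79, 7.72 and 7.28 in nulls, and all 8 measured had a higher null mean. In null 3 the genes of this list were split. Myt1 read higher there than in null 1 (6.44) and null 2 (6.35), against 5.13 to 5.66 in controls. Insm1 (6.77), Isl1 (10.09) and Nkx2-2 (9.08) in null 3 also exceeded every control. Neurod1 (6.43) and Pax4 (5.55) lay below every control there, and Neurog3 and Pax6 lay among the controls. The higher list mean in null 3 rested on Myt1, since without that gene null 3 lay among the controls. The acinar markers had 6.26 to 6.74 in controls and 7.71, 7.39 and 6.40 in nulls. Levels of Rph3al followed the same order of arrays, high in null 1 and null 2 and near controls in null 3. The neuron markers had 6.30 to 6.43 in controls and 6.55 to 6.69 in nulls. The crest and glia markers had 6.31 to 6.43 and 6.56 to 6.61. Both lists were higher on all null arrays. In null 1 and null 2 they rose by less than the epithelial, progenitor, endocrine and acinar lists. In null 3 they stood at 0.30 and 0.21 above the control mean, the other lists at 0.02, 0.09, 0.30 and -0.10. Single genes carried much of the neuron and crest values in null 3. Fabp7 read 9.52 there, 7.85 to 8.43 in controls and 6.69 and 7.23 in null 1 and null 2. Without it the crest and glia mean was 5.86 in null 3, below the 5.89 to 6.01 of controls. In null 1 and null 2 it was then 6.53 and 6.45, above all controls. Tubb3 read 8.17 in null 3 and 5.81 to 6.24 in controls; without it the neuron mean was 6.50 in null 3, beside 6.35 to 6.48 in controls. Both were singled out after their values were seen. S100b was dim. The part of these shifts in the members' levels was not tested. The values given above with the endocrine covariate cannot show it, since that covariate, with Myt1 in it, separates the genotypes.

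**Figure D4:**
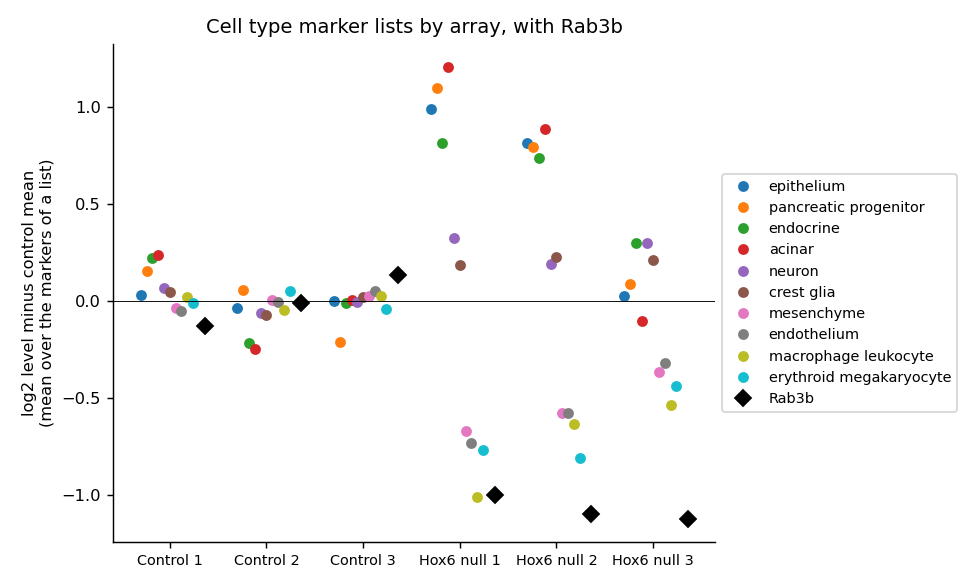
Mean log2 level of each marker list minus its control mean (y axis) on the 6 arrays (x axis), with Rab3b as black diamonds. Epithelial, progenitor, endocrine and acinar lists are high in null 1 and null 2 and near 0 or, for endocrine markers, at 0.30 in null 3, while Rab3b is near -1 on all 3 null arrays. The 0.30 is a mean of genes that were split in null 3, with Myt1 well above its controls and Neurod1 and Pax4 below theirs. Mesenchyme, endothelial, macrophage and erythroid lists lie below 0 on all 3 null arrays, least so in null 3. Neuron and crest lists lie above 0 on all 3.

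None of the 130 other genes of the secretory pathway measured passed the test over all genes (limma, Benjamini-Hochberg), where 0.0715% of all genes were called in either direction. At an unadjusted p under 0.05 there were 17 higher and 13 lower, where 17% of all genes passed that level. Without null 3, 20 of the 130 were called higher and 2 lower, where 8.44% of all genes were called, 4.42% higher and 4.02% lower. With any other single array left out, none of the 130 was called.

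Direct partners of Rab3 and Rab27 (25 measured of 28 listed) had null means on both sides of the controls. A higher null mean was found for 13 and a lower one for 12, with a median of 0.01 beside 0.03 for all genes, and at an unadjusted p under 0.05 there were 1 higher and 3 lower. Groups did not overlap for 1 higher and 7 lower of the 25, where 12.2% of all genes were separated upwards and 11.7% downwards. Rabif, a chaperone of nucleotide-free Rab proteins, read 8.73, 8.67 and 8.61 in controls and 7.94, 8.12 and 8.33 in nulls, at -0.54 ± 0.12 (SE; limma, adjusted p = 0.161). Sytl2, a Rab27 effector, stood at -0.63 ± 0.19 (limma, adjusted p = 0.21) and Rab3il1, first described as an exchange factor of Rab3a, at -0.55 ± 0.17 (limma, adjusted p = 0.213). Exph5, another Rab27 effector, stood at 0.62 ± 0.25 (limma, adjusted p = 0.282), with null 2 at 6.62 and the other nulls at 5.76 and 5.63. The regulators of the Rab3 cycle named next were chosen after their values were seen. The GTPase-activating subunits Rab3gap1 and Rab3gap2 stood at -0.11 and -0.06 and the exchange factor Madd at 0.11, each within 1 SE or near it (SE 0.13, 0.14 and 0.11).

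The fusion machinery, which comprises SNAREs, their Munc18 and Munc13 partners, complexins and synaptotagmins, had 35 of 37 listed genes measured. Of these, 20 had a higher and 15 a lower null mean, the median was 0.04, and at an unadjusted p under 0.05 there were 7 higher and 4 lower. Syt5, of the synaptotagmin family of vesicle calcium sensors, read 6.59, 6.63 and 6.74 in controls and 7.62, 7.25 and 6.95 in nulls, at 0.62 ± 0.17 (SE; limma, adjusted p = 0.192). Syt6 stood at 0.46 ± 0.14 (limma, adjusted p = 0.212). Stxbp2, the Munc18 form of epithelial and blood cell granules, stood at 0.43 ± 0.13 (limma, adjusted p = 0.215). Syt2, a fast calcium sensor of synapses, stood at -0.41 ± 0.13 (limma, adjusted p = 0.217).

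Granule cargo and hormone genes (23 measured of 25 listed) had the most one-sided means. A higher null mean was found for 22 of 23, where 56% of all genes were higher, and the list median was 0.54. By array the list median was 0.77 in null 1, 0.75 in null 2 and 0.03 in null 3, so that null 3 lay near the controls. At an unadjusted p under 0.05 there were 7 higher and 1 lower, and 13 of the 23 were called higher without null 3, where 4.42% of all genes were. None of the 23 was called with all arrays or with any other single array left out. Those 13 calls thus depend on leaving out the null array that lay near the controls. Pcsk1n, an inhibitor of prohormone convertase, read 6.42, 5.86 and 6.20 in controls and 7.17, 7.33 and 6.46 in nulls, at 0.82 ± 0.25 (SE; limma, adjusted p = 0.212). Scg3, a granin that sorts cargo, stood at 0.69 ± 0.23 (limma, adjusted p = 0.237), the hormone gene Ppy at 0.51 ± 0.18 (limma, adjusted p = 0.246) and Ghrl at 0.62 ± 0.23 (limma, adjusted p = 0.257). The single lower one at that level was Slc18a2, the vesicular monoamine transporter, which stood at -0.28 ± 0.11 (limma, adjusted p = 0.261) and was named after its value was seen.

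Other Rab GTPases (47 measured) had 20 higher and 27 lower null means and a median of -0.06. At an unadjusted p under 0.05 there were 2 higher and 5 lower. Rab32, which serves lysosome-related organelles, read 6.98, 6.61 and 6.90 in controls and 5.49, 5.71 and 6.24 in nulls, at -1.01 ± 0.20 (SE; limma, adjusted p = 0.149). It was a drop of a size like that of Rab3b, yet with null 3 closest to the controls, and it was called with array weights and without null 3. Rab39b and Rab40b stood at 0.46 ± 0.10 (limma, adjusted p = 0.161) and 0.47 ± 0.12 (limma, adjusted p = 0.178). Rab9, of transport from endosomes to the Golgi, stood at -0.33 ± 0.11 (limma, adjusted p = 0.241).

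**Figure D5:**
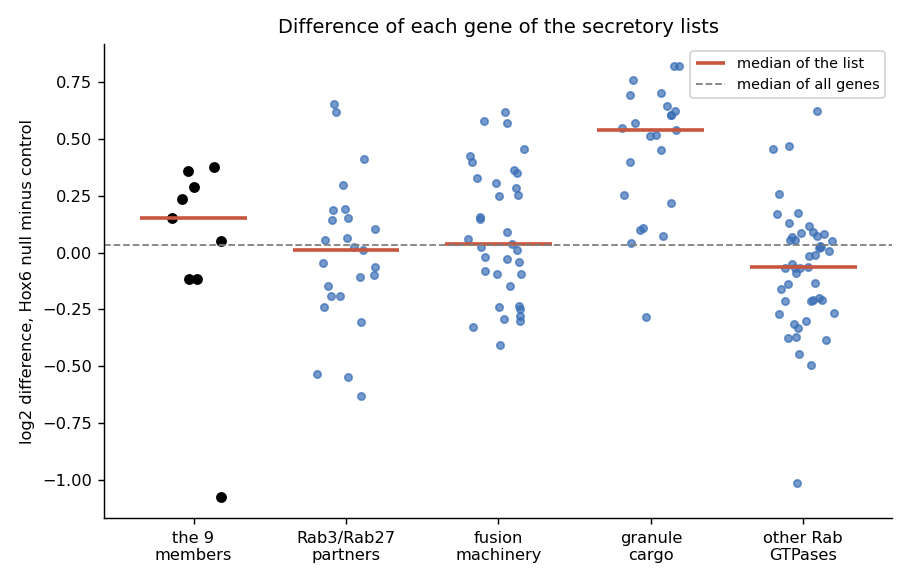
Log2 difference, Hox6 null minus control, of each gene (points, y axis) in the 9 members and the 4 secretory lists (x axis); red bars are list medians and the dashed line is the median of all genes, 0.03. Rab3b is the lowest point of the members at -1.07, and the granule cargo list has its median at 0.54, with 22 of 23 points above 0.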

How the data were processed

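Per the submitters' processing notes, arrays were processed with RMA, affy and limma. The table deposited by the authors holds log2 expression by probe set. RMA subtracts background, equalizes the arrays' distributions and summarises probes. A level has meaning mainly against other arrays and is only a rough guide across probe sets. A dim probe set shows less than its true change. Detection calls were not taken into account. Precision is limited by there being 3 arrays in each group.

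Of 45101 probe sets, 64 array controls were left out. The platform annotation named 34945 with 1 symbol and 932 with several, and 9160 had none listed. Genotype was the single term of a limma 3.58.1 fit (R 4.3.3; lmFit, eBayes, two-sided, Benjamini-Hochberg, threshold 0.05). It was run over all probe sets and over genes, each by its probe set with the highest mean. With 3 against 3 samples an exact permutation test cannot go below 0.1. The fit was tested on simulated data. Its p-values reflect only the variation among these 6 samples.

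The members and gene lists were chosen with earlier results of these data known. Named genes are all members, and from each pathway list those past the threshold and up to 4 by smallest p. For Rab3b they include the 5 nearest genes. Alternatives covered filter, normalization, prior, weights, block, probe set choice, threshold, covariates and left-out arrays. Promoter sequences are from RefSeq (GRCm38.p6).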

Additional observations from a re-analysis of the deposited data

How the results depend on the processing

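The count of genes called was 13 (1 higher, 12 lower). It was 20 with a minimum level of 5, 1 with quantile normalization repeated or over all probe sets, 8 with arrays centred on their median, 74 with a trend and robust prior, 155 with array weights, 88 at a threshold of 0.1 and 0 with the endocrine covariate. With the epithelial covariate it was 17 (13 higher, 4 lower). Leaving out 1 array gave 0 to 1536, the latter without null 3. The 1 probe set called became 0 with quantile normalization repeated, 63 with the trend and robust prior, 41 with array weights, 26 at a threshold of 0.1 and 0 to 1902 with 1 array left out. The 0 pathway genes called became 1 with array weights and 0 to 22 with 1 array left out. The causes were not tested.

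Replicate numbers are shared by the groups. Deviations of same-numbered arrays from their group means correlated at 0.159, -0.0376 and 0.1. Those of differently numbered arrays correlated at -0.17 to 0.0554, so that 0.159 and 0.1 were the highest values. The numbers were not taken as pairs, but these correlations cannot exclude pairing. With the replicate block the count of genes called was 0.

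Rab3b, Rab27a, Rab27b and Rims2 kept the sign of their difference in all 17 alternatives that gave a value. Several alternatives could not turn a sign. The prior, the block, the threshold, the fit over all probe sets and the minimum level left the difference as it was. The mean over probe sets did so for Rab3b, which has 1 probe set. Leaving out 1 array could not turn the sign for Rab3a, Rab3b or Rab27a, whose groups did not overlap. The probe sets of Rab27b still differed in sign from each other. Opposite signs occurred in 1 of 17 for Rab3a, 2 of 16 for Rab3c, 4 of 17 for Rab3d, 2 of 18 for Rph3al and 4 of 17 for Sytl4. With a minimum level of 7, Rph3al is the single member left.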
